A study of Mus musculus with 8 samples.

Results

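ATAC-seq, which marks open chromatin by the positions where a transposase inserts into DNA, was carried out on bone marrow-derived macrophages, and the regions described here are the intronic, non-repeat peaks of resting macrophages with a floxed NCoR1 gene. From the NCoR f/f table a peak was taken when it belonged to the peak set of the vehicle (Veh) condition, was annotated to an intron, and carried neither a repeat nor a CpG island in its detailed annotation. That table had 24867 peaks, of which 15473 were in the Veh set and 3073 met all 3 conditions. The Veh set also held 7098 promoter peaks, 2478 intergenic non-repeat peaks and 981 intronic peaks lying in a repeat or a CpG island. Tags were not used in the choice, but membership of the Veh set required a peak that was reproducible between libraries, so irreproducible low peaks were removed beforehand.

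Regulatory elements within introns are for the most part enhancers, stretches of DNA that bind transcription factors and act on a promoter at a distance. In macrophages, enhancers are opened by lineage factors such as PU.1 and members of the C/EBP family, and signal-dependent factors such as AP-1 and NF-kB then act at them when a Toll-like receptor is engaged. NCoR is a corepressor that binds nuclear receptors and other transcription factors and carries the histone deacetylase HDAC3, and it represses many of these elements in the resting state.

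The 2 libraries in which the intronic peaks were defined came from NCoR1 flox/flox macrophages on a C57BL/6 background, kept in vehicle for 6 hr. No Cre was named for them, and they are the control of an NCoR deletion driven by LysM-Cre in myeloid cells, whose libraries were not analysed here. The same regions were then followed in 6 libraries of Wild type C57BL/6 macrophages, 2 each for vehicle, for KLA over 6 hr and for RGFP966 with KLA. KLA is Kdo2-lipid A, an agonist of the receptor TLR4, and RGFP966 is an inhibitor of HDAC3. Per the study's methods, cells were starved of serum before the ligand was given, and RGFP966 was added when that starvation began. No library had RGFP966 without KLA, so RGFP966 + KLA against Veh joins the effects of both. The RGFP966 group rests on the library titles, since its treatment label names KLA alone. Every culture was grown from bone marrow in medium with M-CSF, the growth factor that drives macrophage differentiation. The sources used here do not say whether paired libraries came from separate mice, so the p-values below measure only the spread between these libraries.

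Tags in peaks numbered 372367 and 509741 for NCoR f/f and 116733 to 202523 for the Wild type libraries. A tag is 1 sequenced read assigned to a peak, and a level below is the number of tags in a peak per 10000000 tags in all peaks of the same library. The macrophage label was checked by asking whether a Veh-set peak lay within 1000 bp of the start site of marker genes. This was so for 5 of 12 macrophage markers, Cd14, Cd68, Mertk and Spi1 among them, and Csf1r and Msr1, which had none, held 3 and 1 of the intronic peaks. Adgre1, Itgam, Fcgr1, Lyz2 and Lpl had no start-site peak and no intronic peak. Among markers of other cells, a start-site peak was found for 1 of 9 B cell genes (Bank1, with 34 and 67 tags), 1 of 10 T and NK cell genes (Tcf7), 1 of 10 granulocyte genes (Camp), 2 of 6 dendritic cell genes (Batf3 and Zbtb46), 1 of 8 stromal genes (Runx2), 0 of 8 erythroid and megakaryocyte genes and 0 of 6 mast cell genes. Intronic peaks lay in 2 of the 8 stromal genes, 1 each in Pdgfrb and Runx2, and in none of the other non-macrophage markers. The part of such cells in the results was not tested.

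Sequences of 9 intronic peaks are given first, because the results below turn on the motifs in them or on their tags. Each is the central 200 bases of the peak, plus strand, read from the mm10 genome. Capitals mark matches, on either strand, to the letters searched: GAGGAAGT for PU.1, TGANTCA for AP-1, TTGCNNAA for C/EBP, TGTGGTTT for RUNX, GTCACGTG for MITF/TFE, GGGCGG for SP/KLF, CCAAT for NFY, GCGCATGC for NRF1 and CCGGAAGT for ETS factors at promoters, with IRF, NF-kB, MEF2, CTCF and the LXR/RXR DR4 element searched by their consensus. Matches could overlap one another, and a match is a description of the letters and not a bound site. Zfp386 and Pdpn hold PU.1, AP-1 and C/EBP letters together, and were chosen for that after the matches were seen. Tfeb and Abca1 are a lineage transcription factor and a cholesterol exporter, Bcr, Kif16b, Ctns and Rapgef5 changed in the Wild type comparisons, and Sfi1 held the highest level of all. The windows are chr12:116054458-116054657 (Zfp386, intron 1), chr4:143288485-143288684 (Pdpn, intron 1), chr17:47754307-47754506 (Tfeb, intron 1), chr4:53120494-53120693 (Abca1, intron 5), chr10:75170535-75170734 (Bcr, intron 16), chr2:142758144-142758343 (Kif16b, intron 13), chr11:73193153-73193352 (Ctns, intron 3), chr12:117560542-117560741 (Rapgef5, intron 3) and chr11:3187379-3187578 (Sfi1, intron 2).
Zfp386: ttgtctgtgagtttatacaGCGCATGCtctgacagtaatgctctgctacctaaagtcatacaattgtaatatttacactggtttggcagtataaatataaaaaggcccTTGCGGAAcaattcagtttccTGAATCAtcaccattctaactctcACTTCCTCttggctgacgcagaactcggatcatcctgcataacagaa
Pdpn: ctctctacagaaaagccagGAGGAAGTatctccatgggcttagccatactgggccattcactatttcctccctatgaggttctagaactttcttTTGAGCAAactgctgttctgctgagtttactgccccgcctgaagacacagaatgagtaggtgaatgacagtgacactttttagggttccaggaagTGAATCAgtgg
Tfeb: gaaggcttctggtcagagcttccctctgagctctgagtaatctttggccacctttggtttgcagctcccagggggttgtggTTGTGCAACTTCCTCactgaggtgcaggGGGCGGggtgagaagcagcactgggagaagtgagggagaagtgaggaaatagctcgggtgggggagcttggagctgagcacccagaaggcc
Abca1: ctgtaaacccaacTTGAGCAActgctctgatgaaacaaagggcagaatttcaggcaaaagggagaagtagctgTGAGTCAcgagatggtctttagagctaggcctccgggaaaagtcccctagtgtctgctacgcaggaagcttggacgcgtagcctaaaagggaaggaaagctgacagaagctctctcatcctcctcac
Bcr: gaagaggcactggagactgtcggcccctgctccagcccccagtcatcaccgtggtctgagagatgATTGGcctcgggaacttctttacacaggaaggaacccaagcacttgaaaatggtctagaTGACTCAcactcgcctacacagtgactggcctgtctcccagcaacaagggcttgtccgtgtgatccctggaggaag
Kif16b: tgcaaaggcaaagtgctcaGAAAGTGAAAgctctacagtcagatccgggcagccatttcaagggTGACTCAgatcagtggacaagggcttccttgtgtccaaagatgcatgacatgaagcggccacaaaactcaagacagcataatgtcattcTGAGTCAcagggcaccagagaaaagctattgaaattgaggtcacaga
Ctns: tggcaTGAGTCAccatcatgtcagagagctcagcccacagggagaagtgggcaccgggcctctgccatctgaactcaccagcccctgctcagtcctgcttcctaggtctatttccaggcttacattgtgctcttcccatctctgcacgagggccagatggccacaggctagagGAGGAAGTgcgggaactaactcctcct
Rapgef5: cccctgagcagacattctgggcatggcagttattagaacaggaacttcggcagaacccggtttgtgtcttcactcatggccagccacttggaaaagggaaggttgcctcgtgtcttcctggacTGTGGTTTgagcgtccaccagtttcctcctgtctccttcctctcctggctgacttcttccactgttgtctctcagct
Sfi1: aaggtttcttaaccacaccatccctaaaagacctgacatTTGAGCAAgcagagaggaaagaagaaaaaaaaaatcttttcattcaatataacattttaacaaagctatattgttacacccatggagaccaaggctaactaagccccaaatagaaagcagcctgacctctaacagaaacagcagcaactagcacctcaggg

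In level, width and GC content the intronic peaks lay near intergenic peaks, and below promoters. The intronic peaks held 48274 tags (13% of tags in peaks) in replicate 1 and 63942 (12.5%) in replicate 2. A typical intronic peak had 14 and 18 tags, with a range of 6 to 144 in replicate 1 and 7 to 151 in replicate 2. Their median level was 365, against 504 for promoter peaks, 377 for intergenic non-repeat peaks and 427 for the whole Veh set. Per kilobase of peak the medians were 1234 for the intronic, 1510 for the promoter and 1265 for the intergenic peaks, so intronic and intergenic peaks lay near each other and below promoters on both scales. The median width of the intronic peaks was 296 bp, with quartiles of 256 and 342 bp, against medians of 299 bp for intergenic and 321 bp for promoter peaks. In GC content the intronic peaks had a median of 52%, close to the 51% of intergenic peaks and below the 66.5% of promoters, and their median observed-to-expected CpG ratio was 0.221 against 0.846 at promoters. Peaks in CpG islands were left out of the intronic and intergenic classes but not of the promoters. These gaps to promoters were thus partly set by the choice. Intronic peaks in a repeat or a CpG island had medians of 59% and 0.556.

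At these tag numbers a single intronic peak was measured loosely. Levels in the 2 libraries correlated across the 3073 peaks with Pearson's r of 0.696 and a Spearman rank correlation of 0.611, against r of 0.804 for promoter peaks and 0.727 for intergenic peaks. These points share their libraries and their selection for reproducibility, so the values are descriptions. In 84 of the intronic peaks (2.73%) the libraries differed by more than 2-fold, against 1.99% of promoter, 2.82% of intergenic and 2.33% of all Veh-set peaks. The ratio between libraries had a central 95% range of -0.92 to 0.79 on the log2 scale.

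**Figure D1:**
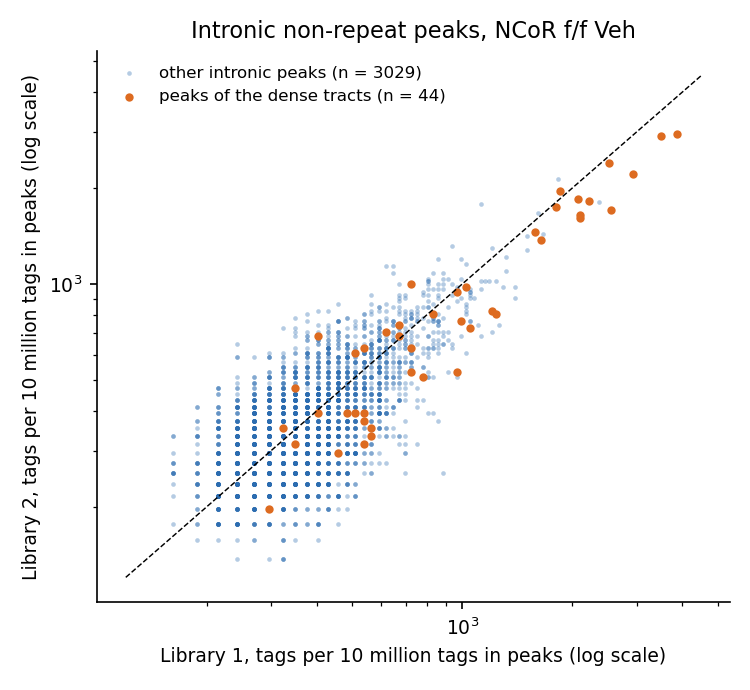
Level of each intronic peak in replicate 1 (x axis) and replicate 2 (y axis) of the NCoR f/f Veh libraries, in tags per 10000000 tags in peaks on log axes, with the 44 peaks of the dense tracts described below in orange and equal levels as a dashed line. The points spread around the line with r of 0.696, and the highest is in Sfi1, with 144 and 151 tags.

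The peaks were spread over 2094 host genes, and most hosts held a single peak. There were 1493 hosts with 1 peak, 394 with 2 and 207 with 3 or more, and these last held 791 peaks. The hosts with most peaks were Mroh2a with 22, Pde4d, Sfi1 and Tns3 with 8 each, and A730008H23Rik, Arhgap22, Etv6, Zfp982 and Zmiz1 with 7 each, followed by App with 6. Pde4d encodes a cAMP phosphodiesterase, Tns3 an adaptor of focal adhesions, Zmiz1 a transcriptional coregulator and App the amyloid precursor protein. The highest peak within Pde4d had 23 and 24 tags, that in Tns3 25 and 35, and that in App 27 and 41. A gene with many peaks did not always have a high one. In Zfp982, 27% of the 30-base words of the highest peak (32 and 36 tags) occurred elsewhere in the genome, so its tags may be shared with copies.

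The first intron of the host held more peaks than any other intron rank compared, though most lay far from a start site. It held 1216 (39.6%, 95% Wilson interval 37.9 to 41.3) and the second intron 542 (17.6%). First introns made up 26.5% of intron bases in the host transcripts. Averaged over 3049 peaks with an annotated transcript, the first intron made up 32.2% of the intron bases of the host, and 39.7% of these peaks lay in it. The median distance to the nearest start site was 16594 bp, against 24490 bp for intergenic peaks. Within 1000 bp of a start site lay 183 peaks (5.96%), a further 975 (31.7%) lay within 10 kb, and 269 (8.75%) lay beyond 100 kb. The host was also the gene with the nearest start site for 2319 peaks (75.5%). Interval bounds here and below cover counting error only.

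Some of the highest intronic peaks lay in 3 dense tracts, which were marked out after the data were seen as runs of at least 20 Veh-set peaks with gaps of at most 3000 bp. The tract at chr1:88211400-88310861 held 90 Veh-set peaks that covered 58.4% of its length, and 36 of them were intronic peaks, 22 in Mroh2a and 7 in A730008H23Rik. In Mroh2a the 3 highest had 83 and 93, 77 and 94, and 69 and 100 tags in replicates 1 and 2. The peaks of this tract had a median width of 517 bp, and they held 2.63% and 2.38% of all tags in the intronic peaks. The tract at chr11:3181367-3202464 held 25 Veh-set peaks and 5 intronic peaks, all in Sfi1, a gene named for the spindle pole. Its highest peaks had 144 and 151, 130 and 149, 109 and 113, and 95 and 87 tags. The last tract lay on an unplaced scaffold and held 96 Veh-set peaks, with 3 intronic peaks in the pseudogene Pisd-ps3, the highest with 94 and 122 tags. In all 44 intronic peaks lay in these tracts, as did 11 of the 14 that were wider than 800 bp. Whether copy number or background signal plays a part there was not tested. Without them the median level was 363.

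Outside the tracts the highest peak was in Kctd16 (88 and 92 tags), followed by those in Crlf2 (68 and 109), the cytokine receptor chain for TSLP, in Ssc4d (60 and 85), a scavenger receptor family member, in Pard3 (56 and 72), a cell polarity scaffold, in Cic (42 and 91), a transcriptional repressor, and in Fstl3 (56 and 65), an activin antagonist. Those from Ssc4d on were picked by level after the tracts were set aside, as were Lrp8 (49 and 62 tags) and Relb (45 and 66), an NF-kB subunit. The Cic peak lay 414 bp from the start site and the Relb peak 759 bp, whereas that in Pard3 lay 141688 bp away. In each of these 8 peaks replicate 2, the library with more tags in all, had the higher number.

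Lineage factor and AP-1 motifs stood in larger shares of intronic than of promoter peaks, and in shares near those of intergenic peaks. Intronic and promoter peaks differ in GC content and were not matched for it. The part of base composition in these shares was not tested. In the central 200 bases of the 3069 peaks with sequence, the AP-1 letters stood in 26.4%, against 3.1% of promoter peaks, 28% of intergenic peaks and 13.5% of the Veh set. PU.1 letters stood in 15.5% (2.56% of promoters, 12.9% of intergenic peaks, 7.9% of the set) and C/EBP letters in 12.8% (4.54%, 14.5% and 8.72%). RUNX letters stood in 4.76%, against 0.564% at promoters and 2.41% in the set. Promoter-type letters went the other way, but the choice of peaks bears on this. Intronic peaks in CpG islands had been left out and promoter peaks in them had not. Shares of letters that hold CG, such as those of SP/KLF, NRF1, ETS and MITF/TFE, were thus partly set beforehand. SP/KLF letters stood in 10.2% of intronic and 69.5% of promoter peaks (42.4% of the set), NFY in 19.2% and 37.7% (28.5%), NRF1 in 0.391% and 4.75% (2.59%), and the ETS promoter form in 0.521% and 7.41% (4%). NF-kB and IRF letters differed less between the classes, with NF-kB in 3.42% of intronic, 3.33% of promoter and 3.51% of all Veh-set peaks, and IRF in 2.48%, 1.41% and 1.91%. MEF2 stood in 0.912% (0.53% of the set), MITF/TFE in 0.782% (2.3%) and CTCF in 1.17% (3.66%). The LXR/RXR DR4 letters were in 0 of the 3069 windows, and in 0 of the promoter and intergenic ones. This was the longest element searched and no mismatch was allowed. The 0 therefore cannot show that LXR elements are absent.

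**Figure D2:**
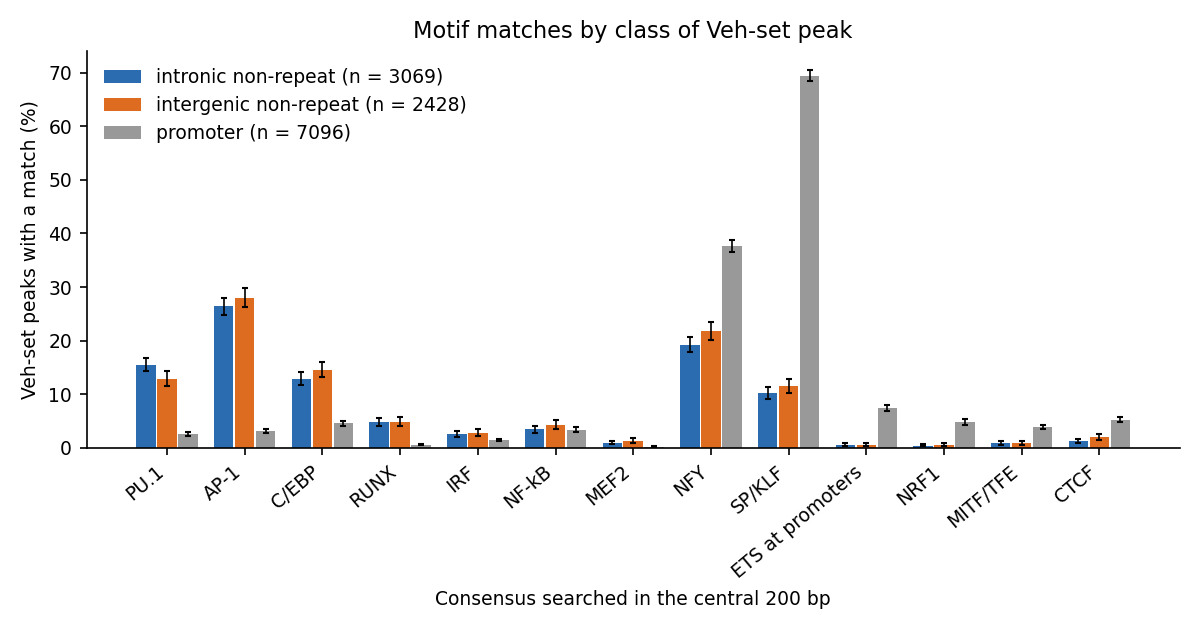
Percent of peaks whose central 200 bases hold each motif, for intronic, intergenic and promoter peaks, with 95% Wilson intervals as bars. AP-1 (26.4%), PU.1 (15.5%) and C/EBP (12.8%) are more frequent in intronic than in promoter peaks. SP/KLF (10.2% against 69.5%) shows the opposite order. The classes were not matched for GC content, and CpG islands were left out of the intronic and intergenic peaks alone.

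At least 1 of the PU.1, AP-1 and C/EBP letters stood in 1454 intronic peaks (47.4%), against 9.64% of promoter peaks, 47.7% of intergenic peaks and 26.4% of the set. Combinations were rare, with 2 or more of them in 217 peaks (7.07%) and all 3 in 8 (0.261%). In Zfp386 (20 and 31 tags) and Pdpn (19 and 26 tags), both printed above, the 3 elements stood in different orders and strands. The median level was 372 with AP-1 letters and 362 without, 364 with PU.1 letters and 365 without, 373 with C/EBP letters and 363 without, and 385 with SP/KLF letters and 362 without.

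The intronic peaks were less often shared between conditions than promoters were, and about as often as intergenic peaks. The NCoR f/f table also names the peak sets of NCoR f/f macrophages in KLA and of knockout macrophages in vehicle and KLA, as lists of peaks without the libraries themselves. Of the intronic peaks, 65.7% (64 to 67.3) were also in the KLA set, against 84.3% of promoter and 65.3% of intergenic peaks. For the knockout the shares were 33.7% in vehicle (55.1% of promoters, 34.7% of intergenic peaks) and 56.3% in KLA (72.9% and 56.4%). All 4 sets held 751 intronic peaks (24.4%), against 25.5% of intergenic peaks and 36.1% of all Veh-set peaks. In the Veh set alone were 707 (23%), against 23.1% and 17%. These sets were of unequal size, with 18667 peaks for f/f KLA, 7983 for knockout vehicle and 14357 for knockout KLA against 15473 for f/f Veh. Membership followed level. Peaks in all 4 sets had a median of 19 and 27 tags and those in the Veh set alone 11 and 14, at median levels of 523 and 284.

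Peaks with AP-1 letters were in the f/f KLA set in 73.2% of cases (70 to 76.1) and peaks without them in 62.9% (60.9 to 64.9). In the knockout KLA set the shares were 64.4% (61 to 67.6) and 53.3% (51.3 to 55.4). Peaks with PU.1 letters were in the f/f KLA set in 66.6% of cases (62.2 to 70.7) and those without in 65.4% (63.6 to 67.3), with overlapping intervals. In the knockout KLA set their shares were 63% (58.6 to 67.2) and 55% (53.1 to 56.9). The differences were not tested, and the intervals treat peaks as independent, which peaks of 1 library are not.

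The intronic peaks were then grouped by what their host genes do. Of 21031 coding genes, 1986 (9.44%) held an intronic peak, and of the 6343 with a promoter peak in the Veh set, 994 (15.7%) did. Long genes offer more intron to be hit, and no list was matched for length. The lists were also chosen with earlier results of these data known. Their coverage is therefore a description, and its order between lists was not tested.

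Of 37 lineage transcription factors, 14 held 38 peaks, at a median level of 360. Etv6, an ETS-family repressor, held 7, and Fli1, an ETS activator, held 6, the highest of which had 12 and 22 tags in Etv6 and 17 and 33 in Fli1, the latter with PU.1 letters. Tfeb, a regulator of lysosome genes, had a first-intron peak with 20 and 24 tags, whose C/EBP and PU.1 letters overlap in the sequence above. Ikzf1, a lymphoid and myeloid zinc finger factor, had 28 and 43 tags in its highest peak, Mef2c 15 and 29, and the oxidative stress factor Nfe2l2 16 and 20. Of 36 phagocytic, scavenger and growth factor receptors, 11 held 20 peaks. Csf1r, the M-CSF receptor, had a second-intron peak with 33 and 36 tags, the integrin chain Itgb2 had 22 and 39, the scavenger receptor Cd36 had 16 and 21, the inhibitory receptor Sirpa 22 and 22 and the complement receptor C5ar1 18 and 30.

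Signaling genes of the TLR4 and NF-kB pathway held peaks in 16 of 50 cases, 21 peaks in all. Of these, 16 (76.2%) were also in the f/f KLA set, against 65.7% of all intronic peaks. Neither this share nor that of the mediators below was tested, and each rests on few peaks. Irak2, a kinase downstream of MyD88, held 4, the highest with 17 and 22 tags at chr6:113677357-113677683 in intron 7. Relb had the most tags of this list (45 and 66), Traf5, an adaptor of TNF receptors, had 35 and 47, and the kinase Ikbke had 19 and 31. The list of inflammatory mediators and their receptors had fewer hosts, 7 of 50 genes with 18 peaks, and 16 of these (88.9%) were in the f/f KLA set against 65.7% of all intronic peaks. They lay mostly in receptor and lipid mediator genes: Tnfrsf1b (20 and 38 tags in its highest peak), Il17ra (21 and 26), Il4ra (32 and 32), Alox5ap (15 and 30) and Alox5 (16 and 32).

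NCoR, HDAC3 and nuclear receptor genes held peaks in 18 of 41 cases, 23 peaks at a median level of 338, with 47.8% in the f/f KLA set. In their highest peaks the deacetylase genes Hdac4, Hdac5 and Hdac7 had 17 and 27, 24 and 25, and 16 and 25 tags, and the nuclear receptor gene Ppard had 13 and 17. Ncor1 and Hdac3 themselves held none. Ppargc1b, a coactivator gene, held 1 peak with 15 and 24 tags in its first intron. Lipid genes held peaks in 18 of 40 cases, 33 in all at a median of 398. Abca1 held 5, more than any other gene of that list. In intron 5 these had 12 and 14, 21 and 23, and 15 and 30 tags, and in intron 1 they had 8 and 16, and 12 and 14. The strongest holds C/EBP and AP-1 letters, as printed above. Lrp1, an endocytic receptor, had 24 and 26 tags in its highest peak and Soat1, which esterifies cholesterol, 16 and 21. None lay in or nearest to Ptgs2, Cp, Il12a, Scd2, Acp5 or Ocstamp.

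Regulators of small GTPases and actin had the widest coverage, with peaks in 49 of 71 genes, 95 in all at a median level of 361. Arhgap22, a Rac-directed GTPase-activating protein, had 31 and 44 tags at chr14:33247623-33248030 in its second intron, and Elmo1, a partner of DOCK proteins in engulfment, had 28 and 42. Kinases, phosphatases and lipid signaling genes held peaks in 34 of 71 cases, 54 in all, with Jak1 (32 and 38 tags) and the adaptor Sh3bp2 (19 and 39) highest among those named. Of 15 osteoclast genes only Nfatc1 (17 and 22 tags in its highest peak) and Itgb3 (14 and 13) held any. The medians of the 9 lists ran from 338 to 431, against 365 over all the intronic peaks.

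A Wild type peak overlapped 1303 of the intronic peaks (42.4%), and a peak of the Wild type Veh set overlapped 629 (20.5%, 19.1 to 21.9). For the latter the shares were 36.7% for promoter peaks, 24.3% for intergenic peaks and 29% for the whole set. The overlap followed level steeply. With the peaks in 4 bins of level, 12.8% of the lowest bin (169 to 301) overlapped any Wild type peak and 2.05% a Veh-set one, and in the next bins 28.3% and 7.22%, then 46.7% and 16.5%. In the highest bin (472 to 3415) the shares were 82.1% and 56.3%. The Wild type libraries held fewer tags, and 9698 peaks were called in them, so a missing overlap at low level was not detectable as a difference in chromatin. The NCoR f/f allele, the table and the sequencing cannot be told apart here, and no value was tested across the tables.

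**Figure D3:**
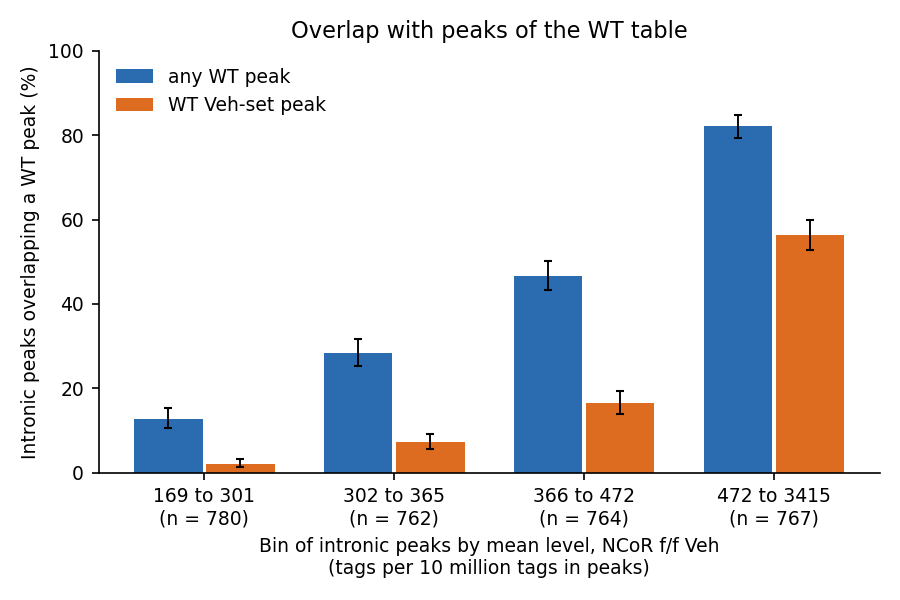
Percent of intronic peaks overlapped by any Wild type peak and by a Wild type Veh-set peak (y axis), by level in the NCoR f/f libraries (x axis, 4 bins of near equal size, tags per 10000000 tags in peaks), with 95% Wilson intervals as bars. Both shares rise over the bins, from 12.8% to 82.1% and from 2.05% to 56.3%.

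The Wild type comparisons ask how these resting intronic regions behaved when TLR4 was stimulated, and when the HDAC3 inhibitor had been added before stimulation. They covered 1306 Wild type peaks that overlap an intronic peak, tested within a fit over all 9698 peaks with edgeR's quasi-likelihood test, and a peak was called at a Benjamini-Hochberg adjusted p under 0.05 with a fold over 2. These calls rest on edgeR. DESeq2 called 0 of the 9698 peaks in every comparison, and gave an unadjusted p under 0.05 to 78, 23 and 98 of the 1306 peaks for KLA against Veh, RGFP966 + KLA against KLA and RGFP966 + KLA against Veh. Over all 9698 peaks DESeq2 gave such a p to 570, 144 and 742. The same threshold in edgeR was met by 273, 165 and 333 of the regions (20.9%, 12.6% and 25.5%). Over all peaks the edgeR shares were close to these, at 19.5%, 13.8% and 25.4%.

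Together the intronic regions held between 11.1% and 12.2% of the tags in peaks. They held 12.2% and 11.9% in the Veh libraries, 11.5% and 11.1% in KLA and 11.7% and 11.5% in RGFP966 + KLA. The Veh libraries lay above all others, while the KLA and RGFP966 + KLA values met at 11.5%. The exact two-sided permutation p was 0.333 for both comparisons with Veh and 0.667 for RGFP966 + KLA against KLA, with 0.333 the smallest that 2 against 2 libraries can give.

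With KLA, more resting intronic regions lost than gained accessibility, the reverse of the order over all peaks. Of the 1306 regions 16 were gained (1.23%, 0.755 to 1.98) against a background of 3.3% of all peaks tested, and 48 were lost (3.68%, 2.78 to 4.84) against a background of 1.73%. The median log2 change was -0.07, beside 0.02 over all peaks. These regions were chosen in resting macrophages, whereas all peaks include those found only under stimulation. The choice itself thus favours losses over gains, and the reversed order cannot be read as a trait of introns. Sorting peaks by the Wild type Veh set likewise favours losses within it and gains outside it. Within that set 46 of 630 regions (7.3%) and 161 of all 4743 peaks (3.39%) were lost. Outside it 15 of 676 regions (2.22%) and 318 of all 4955 peaks (6.42%) were gained. The count of losses depended on single libraries: it was 15 without Veh replicate 1, 25 without Veh replicate 2, 15 without KLA replicate 1 and 23 without KLA replicate 2. Gains numbered 5, 3, 5 and 17 in the same order.

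By the rule for well-covered peaks, 1 gained and 3 lost regions are named. Tags are given for Veh, KLA and RGFP966 + KLA in turn. The gained region lay in Slc12a3, a sodium chloride cotransporter, at chr8:94365419-94365843 in intron 24, with 17 and 13, 47 and 29, and 49 and 52 tags. Both KLA libraries stood above both Veh libraries after scaling (log2 change 1.06, adjusted p = 0.0322). Dapk1, a calmodulin-regulated death-associated kinase, had 43 and 34, 23 and 13, and 24 and 17 tags at chr13:60672926-60673340 in intron 2. Its KLA libraries stood below both Veh libraries, by -1.37 on the log2 scale (adjusted p = 0.00232), and the call was lost without Veh replicate 1. Selp, which encodes P-selectin, had 30 and 21, 19 and 10, and 32 and 26 tags, and Nbea 29 and 29, 23 and 12, and 21 and 32. They fell by 1.09 (adjusted p = 0.039) and by 1.01 (adjusted p = 0.0448) on the log2 scale with KLA. With GC offsets Slc12a3 was not called (log2 change 0.91, adjusted p = 0.0739). The calls of Slc12a3, Selp and Nbea were each lost when any 1 of the 6 libraries was left out.

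Further regions were picked for their host genes after their values were seen. Vsir, an immune checkpoint ligand, had 12 and 13 tags in Veh, 0 and 2 in KLA and 3 and 6 in RGFP966 + KLA. The Veh to KLA ratio was 15.2 with a counting interval of 3.79 to 132. Ank2, which encodes an ankyrin, had 29 and 27, 11 and 4, and 32 and 22 tags, so KLA was the lowest condition and did not overlap with Veh (log2 change -2.17, adjusted p = 0.000213). The Mef2c region in its first intron had 14 and 19, 8 and 3, and 15 and 13 tags, with KLA below Veh again (-1.84, adjusted p = 0.00895). Axl, a receptor for apoptotic cells, had 17 and 14, 8 and 4, and 3 and 13 tags (-1.63, adjusted p = 0.0279), and Hexa, a lysosomal hexosaminidase, had 25 and 20, 9 and 10, and 12 and 11 (-1.51, adjusted p = 0.00821). Among gains, Zc3h12a, the RNase Regnase-1 that degrades inflammatory mRNAs, had 3 and 4, 27 and 8, and 11 and 17 tags (2.01, adjusted p = 0.0145). Map2k6, a kinase that activates p38, had 5 and 6, 27 and 13, and 28 and 28 (1.56, adjusted p = 0.0226), and Glrx, a glutaredoxin, 2 and 2, 16 and 13, and 4 and 15 (2.52, adjusted p = 0.00951). In each of these 8 the KLA libraries lay wholly on 1 side of the Veh libraries, but Ank2 alone among them stayed called with each of the 4 compared libraries left out in turn.

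With RGFP966 + KLA against Veh, both directions held more calls. Of the 1306 regions 48 were gained (3.68%) against a background of 6.89% of all peaks, and 72 were lost (5.51%) against a background of 2.99%. The median log2 change was -0.02, beside 0.04 over all peaks. Within the Wild type Veh set 68 of 630 regions (10.8%) and 281 of all 4743 peaks (5.92%) were lost, and outside it 47 of 676 regions (6.95%) and 664 of all 4955 peaks (13.4%) were gained. Gains made up 40% of these calls, 27.4% with loess offsets, 24.3% with offsets by GC content (a setting added after the data were seen), 32.8% with TMM factors and 48.1% with all tags as library size. With a filter of 16 tags the order turned, to 42 gained and 35 lost (54.5%), and the median to 0.03. Over all peaks there were 668 gains and 290 losses, and 389 and 407 with loess offsets. The gained regions had a median GC content of 47.5%, the lost ones 52.8% and those not called 51%. Counts fell to 11 gained and 24 lost without Veh replicate 1, to 19 and 37 without Veh replicate 2, to 13 and 33 without RGFP966 + KLA replicate 1 and to 22 and 26 without RGFP966 + KLA replicate 2. This comparison shares its Veh libraries, and the choice of regions in resting macrophages, with the one above.

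**Figure D4:**
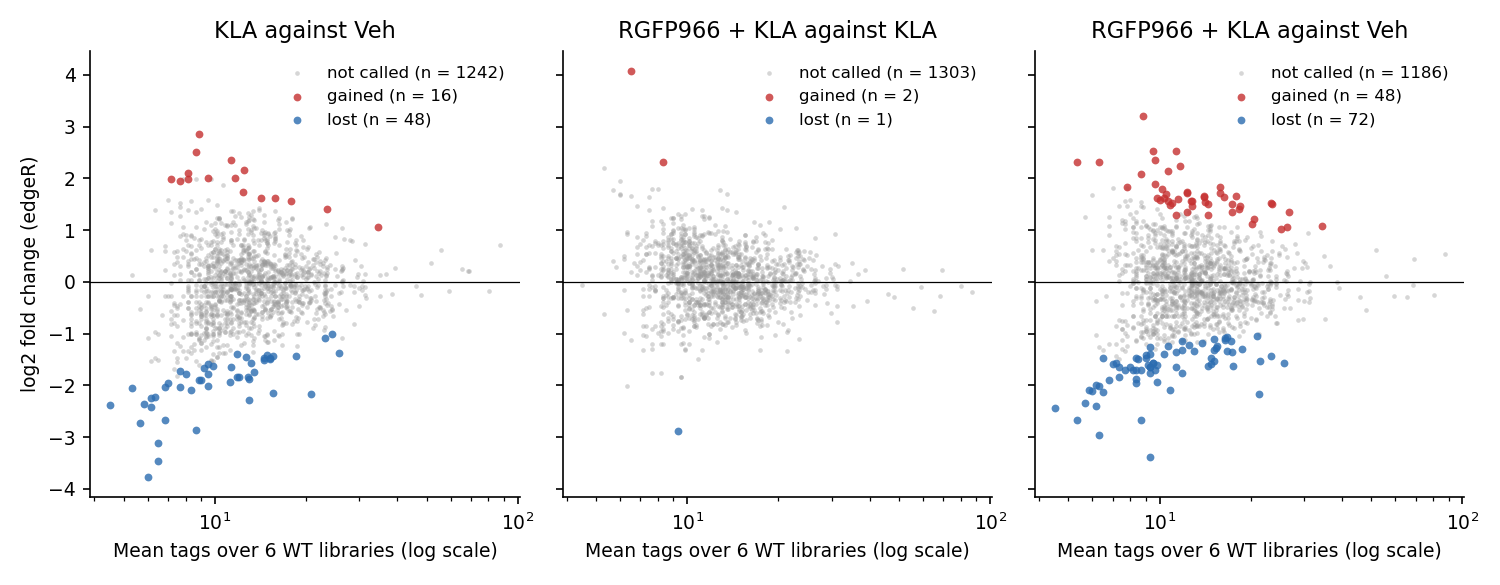
Log2 change by edgeR (y axis) against mean tags over the 6 Wild type libraries (x axis, log scale) for each of the 1306 regions, in 1 panel per comparison, with gained regions in red, lost regions in blue and the rest in grey. Lost regions outnumber gained ones in both comparisons with Veh as plotted (48 against 16, and 72 against 48, the latter order turning to 35 against 42 with a filter of 16 tags), and the largest changes lie at the lowest tag numbers.

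For RGFP966 + KLA against Veh, AP-1 letters stood in 23 of the 48 gained regions, in 12 of the 72 lost ones and in 361 of 1183 not called. For KLA against Veh they stood in 3 of 16 gained regions, in 6 of 48 lost ones and in 387 of 1239 not called. In the former comparison, of the regions with AP-1 letters 5.81% (3.9 to 8.56) were gained and 3.03% (1.74 to 5.22) lost, and of those without 2.76% (1.87 to 4.04) were gained and 6.62% (5.17 to 8.42) lost. For KLA against Veh, 1.52% with AP-1 letters and 4.63% without were lost, and 0.758% and 1.43% were gained. Of the 75 regions with RUNX letters 6 (8%, 3.72 to 16.4) were lost with KLA, against 3.42% (2.54 to 4.59) without, and these intervals overlap. Regions with NF-kB letters gave 1 gain and 1 loss of 52 with KLA, too few to compare.

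Rapgef5, a guanine nucleotide exchange factor for Rap GTPases, was the lost region with the largest fall by the naming rule. It had 31 and 32 tags in Veh, 28 and 15 in KLA and 12 and 10 in RGFP966 + KLA at chr12:117560514-117560844, all in intron 3. The last pair stood below every Veh and KLA library after scaling, and the fall from Veh was 2.17 on the log2 scale (adjusted p = 4e-05), held when any 1 library was left out. Dapk1 fell in this comparison too, by 1.57 (adjusted p = 0.000242). Eif4ebp1, a repressor of cap-dependent translation, had 34 and 21, 28 and 16, and 19 and 11 tags (log2 change -1.53, adjusted p = 0.00164). Ctns, the lysosomal cystine transporter, had 26 and 24, 19 and 11, and 18 and 14 (-1.3, adjusted p = 0.00474). Itprid2 had 28 and 27, 34 and 19, and 18 and 14 (-1.44, adjusted p = 0.00195), so its KLA libraries lay between the other groups. Adam22 had 22 and 26, 6 and 7, and 16 and 16 (-1.24, adjusted p = 0.00767), and was lowest in KLA alone. Mapre2, a microtubule end-binding protein, fell by 1.04 (adjusted p = 0.0218), from 24 and 28 tags in Veh to 23 and 17, and its call was lost without any 1 of these 4 libraries. The calls of Eif4ebp1 and Ctns were lost without Veh replicate 1 and without RGFP966 + KLA replicate 2, and that of Adam22 without Veh replicate 2 and without either RGFP966 + KLA library.

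Of the 7 gained regions named here, 5 hold AP-1 letters. Bcr, a GTPase regulator known from its fusion with ABL1, had 13 and 9 tags in Veh, 34 and 14 in KLA and 46 and 44 in RGFP966 + KLA (log2 change 1.36, adjusted p = 0.00402). The NCoR f/f libraries had 38 and 42 tags there. Atg10, an autophagy enzyme, had 10 and 7, 29 and 16, and 37 and 41 (1.52, adjusted p = 0.00285), and Ndst3, a heparan sulfate enzyme, had 11 and 5, 38 and 14, and 38 and 35 (1.51, adjusted p = 0.00552). In these 3 regions the libraries of RGFP966 + KLA, and also those of KLA, lay above both Veh libraries after scaling. Kif16b, an endosomal kinesin, had 10 and 7, 30 and 13, and 37 and 26 (1.21, adjusted p = 0.0264), the long noncoding gene 9030404E10Rik 7 and 9, 18 and 5, and 35 and 30 (1.35, adjusted p = 0.0131), and Herc6 9 and 10, 20 and 16, and 40 and 26 (1.12, adjusted p = 0.0332). Slc12a3 was gained again (1.08, adjusted p = 0.0126). Without Veh replicate 2, all of these but 9030404E10Rik were no longer called, and 9030404E10Rik, Kif16b, Herc6 and Slc12a3 were no longer called without Veh replicate 1. Without RGFP966 + KLA replicate 1, the calls of 9030404E10Rik, Kif16b, Herc6 and Slc12a3 were lost, and without RGFP966 + KLA replicate 2 that of Slc12a3. With GC offsets, Kif16b had an adjusted p of 0.0942 and Herc6 of 0.0955, and Slc12a3 fell short of the fold with a log2 change of 0.9 (adjusted p = 0.0426).

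**Figure D5:**
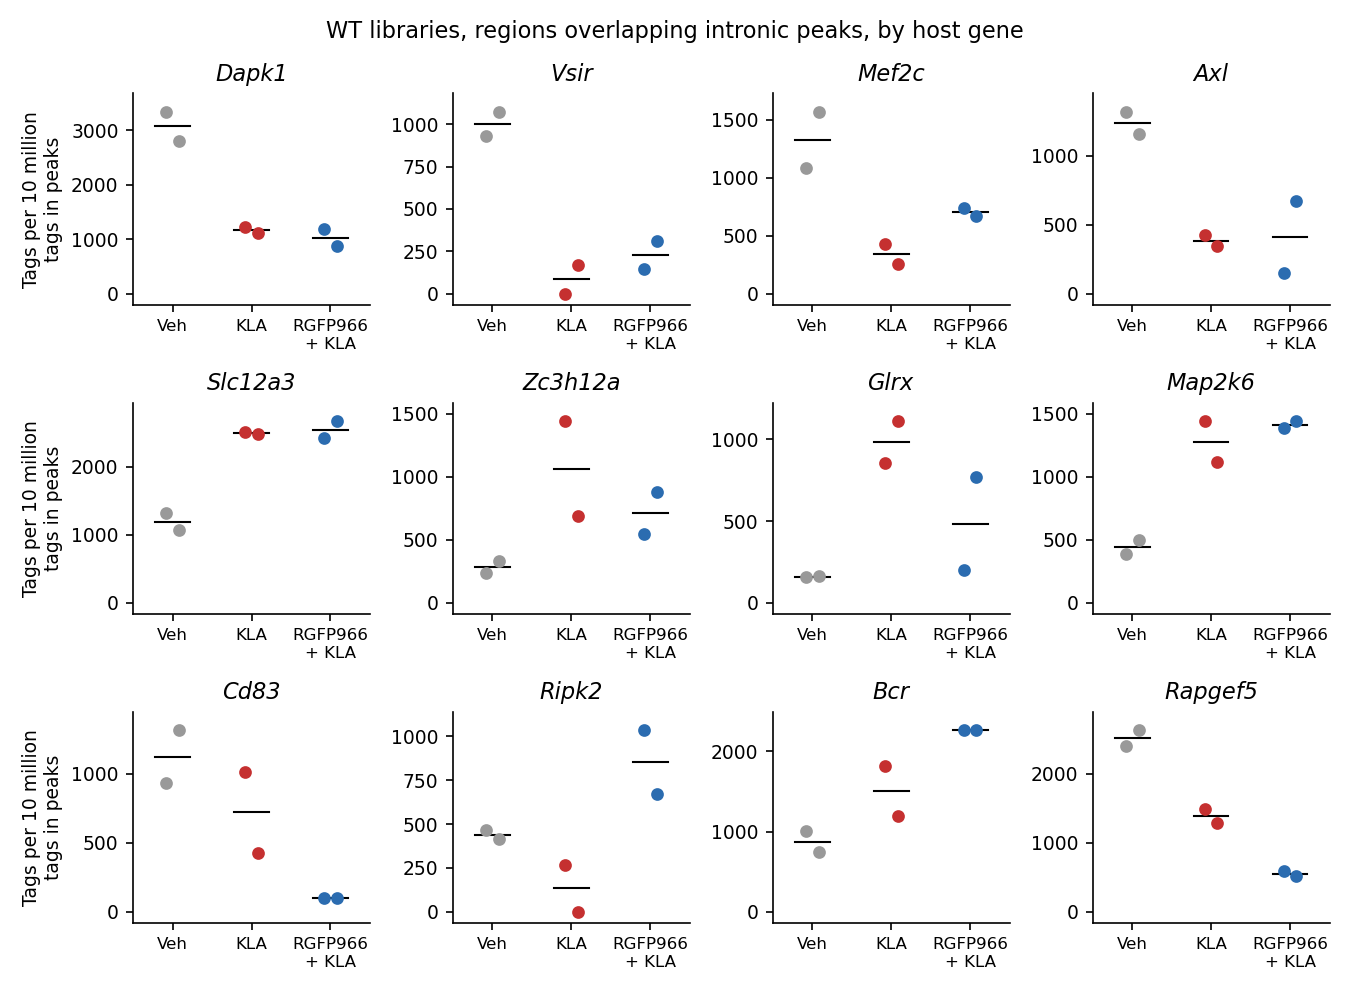
Level in each Wild type library (y axis, tags per 10000000 tags in peaks, with points for libraries and lines for means) of 12 regions picked from those in the text, for Veh, KLA and RGFP966 + KLA (x axis). Rapgef5, Dapk1 and Cd83 lie lower in RGFP966 + KLA than in Veh and Bcr and Slc12a3 higher, with no overlap between those groups.

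Adding RGFP966 to KLA gave few calls, in the intronic regions and over all peaks alike. An unadjusted edgeR p under 0.05 was met by 12.6% of the regions and 13.8% of all peaks. With 2 libraries per group, few calls cannot show that little changed. There were 2 gains (0.153%) against a background of 0.237% and 1 loss (0.0766%) against a background of 0.103%, and the median log2 change was 0.05 beside 0.03 over all peaks. With so few calls their split was unstable, at 2 gained and 3 lost with TMM factors, 4 and 8 with loess offsets and 1 and 2 with GC offsets. Without KLA replicate 1, and without either RGFP966 + KLA library, there were 0 calls, and without KLA replicate 2 there were 0 gains and 2 losses. The lost region lay in Cd83, a surface marker of activated antigen-presenting cells, at chr13:43789042-43789246 in intron 2. It had 12 and 16 tags in Veh, 19 and 5 in KLA and 2 and 2 in RGFP966 + KLA. Both RGFP966 + KLA libraries were below all 4 others (log2 change from KLA -2.88, adjusted p = 0.0191, and from Veh -3.37, adjusted p = 0.00019). Ripk2, a kinase of the NOD pathway, had 6 and 5, 5 and 0, and 21 and 13 tags (2.33, adjusted p = 0.0424), and its adjusted p was 0.0531 with GC offsets. Fam172a had 2 and 9, 1 and 0, and 16 and 11, a ratio of 20.7 with a counting interval of 3.41 to 846. These 3 are all the calls of this comparison.

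The gene lists held few calls, and so few regions each that few would be met at the general shares. Over all 1306 regions 3.68% were lost and 1.23% gained with KLA. With RGFP966 + KLA against Veh 5.51% were lost and 3.68% gained. Whether any list differs from these shares was not tested. For KLA against Veh the losses were Mef2c (1 of 15 lineage factor regions tested), Axl (1 of 8 receptor regions), Arhgap25 and Asap1 (2 of 34 small GTPase and actin regions) and Sh3bp2 (1 of 22 kinase and lipid signaling regions), and no list held a gain. TLR4 and NF-kB signaling, the inflammatory mediators, the NCoR and nuclear receptor genes and the lipid genes had 0 calls among 9, 11, 7 and 12 regions. For RGFP966 + KLA against Veh the losses were Fli1 and Mitf, Axl, Soat1, Arhgap25 and Diaph1, and Sh3bp2, with 1 gain in Inpp4b. In Fli1 the region lost had 15 and 10 tags in Veh and 6 and 8 in RGFP966 + KLA, and in Mitf, a regulator of lysosome and osteoclast genes, 14 and 12 and 8 and 5. List medians for KLA against Veh ran from -0.51 for the receptors to 0.28 for TLR4 and NF-kB signaling, beside -0.07 over all 1306 regions. No list held a call for RGFP966 + KLA against KLA, and no osteoclast gene region was tested.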

How the data were processed

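ATAC-seq libraries were made by the authors from bone marrow-derived macrophages, size-selected and sequenced as single reads. Per the study's methods and the submitters' processing notes, reads were mapped to mm10 with Bowtie2, peaks were called and annotated with HOMER, reproducible peaks were taken from an IDR comparison of 2 libraries per condition, peak sets were merged, and raw tags were counted with at most 3 per position. Versions of these tools were not given in the sources used here. The 2 deposited tables used here, 1 for NCoR f/f and 1 for Wild type, hold these raw tag counts, not normalized, with 1 column per library. Single-end tags, cut-site shifting and the cap of 3 tags per position can lower the counts of the strongest peaks, and their effect was not tested.

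The intronic peaks, gene lists and motifs were chosen with earlier results of these data known. Levels are tags per 10000000 tags in peaks. Host genes and introns were read from the annotation in the table, and sequences from the mm10 genome. Host genes were matched to RefSeq for 3061 peaks, by the authors' table for 11 and not at all for 1. Intervals are 95% Wilson intervals and, like the ratios of 1 to 3 tags, cover counting error only. Overlap meant at least 1 shared base.

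Wild type tags of all 6 libraries were fitted together with edgeR 4.0.16 in R 4.3.3 (quasi-likelihood test, library size equal to tags in peaks, peaks reaching 4 tags in any library). The procedure was also run on simulated tags, drawn with the spread that the fit itself had estimated. That run checked the code and could not show whether this spread suits these libraries. Alternatives were TMM factors, all tags as library size, loess offsets, no filter or a filter of 16 tags, a replicate block, the 4 compared libraries alone, each library left out, a fold of 1.5, an overlap of 50% and DESeq2 1.42.0. Offsets in 20 bins of GC content and leaving out the dense tracts were added after the data were seen. Replicate numbers did not pair the libraries: deviations of same-numbered libraries correlated at -0.002, 0.006 and 0.026. The naming rule took the 10 highest peaks, the 10 hosts with most peaks, up to 6 hosts per list, the genes the study follows, and up to 8 called regions per direction with at least 20 tags on average and no overlap between libraries. Python 3.11.15, pandas 2.3.3, scipy 1.17.1, pysam 0.24.0 and matplotlib 3.10.9 were used otherwise. Libraries of the NCoR knockout and of NCoR f/f in KLA were not analysed here. Some items that the naming rule or the lists would take are not reported here.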

Additional observations from a re-analysis of the deposited data

How the results depend on the processing

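The regions named by the naming rule kept their direction under every alternative run, and the counts of calls moved. For KLA against Veh, 8 regions were gained with all tags as library size, and DESeq2 called 0 gained and 0 lost. For RGFP966 + KLA against Veh, losses numbered 41 with all tags as library size and 35 with a filter of 16 tags (against 42 gains, so that gains exceeded losses), gains 28 with GC offsets, and DESeq2 called 0 and 0. For RGFP966 + KLA against KLA, losses numbered 3 with TMM factors and 2 with a filter of 16 tags, there were 4 gains and 8 losses with loess offsets, 1 and 2 with GC offsets, 0 and 0 with DESeq2, and 5 and 5 with the 4 compared libraries alone. All tags as library size moved the median log2 change over all peaks to 0.21 against KLA and 0.14 against Veh, from 0.03 and 0.04, and that of the intronic regions against Veh from -0.02 to 0.08. Under 8 alternatives that keep every library, DESeq2 not among them, 7 of 16 gains and 19 of 48 losses with KLA stayed called, as did 20 of 48 and 18 of 72 with RGFP966 + KLA against Veh. With each library left out, KLA gave 3 to 17 gains and 15 to 42 losses, RGFP966 + KLA against KLA 0 to 4 and 0 to 6, and RGFP966 + KLA against Veh 11 to 49 and 24 to 77. A lone library was assumed to vary like the others. Called with every compared library left out in turn and under these 8 alternatives were Sec11c and Ank2 (lost with KLA), and, against Veh, 4732416N19Rik (gained) and Rapgef5, Cd83, Dapk1, Itprid2, Itpr2 and Hexa (lost).

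With the replicate block, KLA gave 20 gains and 58 losses against Veh, and RGFP966 + KLA gave 5 and 5 against KLA and 49 and 77 against Veh. The numbers do not pair these libraries.

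The median level of the intronic peaks was 353 to 376 in single libraries, and 9.27 per 10000000 tags of the whole library. Their share of tags in peaks was 12.5% to 13%, and 12.3% on average without the dense tracts. Of peaks with at least 16 tags in both libraries, 45.1% overlapped the Wild type Veh set. At least 1 of the PU.1, AP-1 and C/EBP letters stood in 30.8% of central 100-base windows and in 55.3% of whole peaks. The median of 14 and 18 tags per peak limits what single peaks can show.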
